A study of Mus musculus with 12 samples.

Results

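Electrical stimulation (ES) of uninjured mice was compared with no treatment in 6 of the 12 bulk RNA sequencing libraries of the series, 3 with ES and no injury and 3 untreated controls. The ganglia came from female C57BL/6J mice aged 8 weeks. Stimulated mice received a biphasic ramp current of 300 µA at 20 Hz for 4 min daily over 14 days, through a cathode on the skin around the eye and an anode on the abdomen, under isoflurane at each session. Control mice had no treatment, so repeated isoflurane, handling and the current cannot be told apart. A sham procedure is described by the submitters, but no library carries that label. Neither group was injured. The other 6 libraries were 3 with ES after a keratectomy (removal of corneal epithelium and upper stroma over 1.5 mm of 1 eye, under ketamine and xylazine with a slow-release opioid) and 3 with keratectomy alone. They share the fit of the spread. They serve here to ask whether the effect of ES differed after injury and whether fold changes between other groups followed GC content. The labels number the libraries without saying which ganglion or how many mice each holds, so a p-value here reflects only how much the libraries vary, which may be technical.

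The trigeminal ganglion holds the cell bodies of the sensory neurons of the face and cornea. Each neuron is wrapped by satellite glial cells, and its axon runs among Schwann cells, fibroblasts, vessels and macrophages. Neurons with fast firing axons rely on neurofilaments, voltage-gated channels and vesicle proteins. Defining sensory neuron genes were abundant in both groups, and the 5 that could be measured (Uchl1, Avil, Nefm, Thy1, Elavl3) summed to 7518 to 9157 CPM with ES and 4086 to 4675 CPM in controls, where CPM is the count scaled to a common library total. In bulk tissue, fewer cells of a type and less RNA per cell cannot be told apart.

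Genes are named here by position. The deposited counts fit reads placed on GRCm38 and counted in GRCm39 intervals, so the deposited identifiers were not used as names. An interval took a gene's name when it lay over exons of exactly 1 GENCODE M21 gene on GRCm38 and over at least 100 bp of them. Of 56941 intervals 13053 were tested, and 4771 of these carried such a name. Of all 9968 named intervals 7690 stood under the identifier of another gene. Each gene is therefore measured through a stretch of its exons, as in the 3 stretches of coding exon shown here because the fold changes of this comparison followed base composition. They are read from GENCODE M21 transcripts, 5′ to 3′ on the gene's strand, with G and C in capitals. Dnm1 was higher with ES, and Cdh19 and Uqcrc2 were lower, so all 3 go with base composition. Genes that go against it, such as Cacna2d3, Tspan7, Acadl and Fbn2, are given further below. The Dnm1 stretch (chr2:32340469-32340565, minus strand) is part of 171 coding bases measured and has 57.7% G and C. The Cdh19 stretch (chr1:110893185-110893436, minus strand, all 252 bases measured) has 38.9%. The Uqcrc2 stretch (chr7:120640234-120640298, plus strand, part of 122 bases) has 41.5%.
Dnm1: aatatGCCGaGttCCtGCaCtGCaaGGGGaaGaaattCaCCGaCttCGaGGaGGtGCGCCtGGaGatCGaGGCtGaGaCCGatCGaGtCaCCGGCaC
Cdh19: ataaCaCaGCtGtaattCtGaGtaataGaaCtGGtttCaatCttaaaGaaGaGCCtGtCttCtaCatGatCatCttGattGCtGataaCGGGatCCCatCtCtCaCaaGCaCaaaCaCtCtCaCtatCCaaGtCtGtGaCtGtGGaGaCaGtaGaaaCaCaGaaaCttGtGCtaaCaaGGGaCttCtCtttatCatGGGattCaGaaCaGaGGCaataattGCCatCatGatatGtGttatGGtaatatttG
Uqcrc2: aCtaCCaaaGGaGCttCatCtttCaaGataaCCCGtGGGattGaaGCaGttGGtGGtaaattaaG

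Stimulated and control ganglia differed in a large share of measured genes, and the direction followed base composition. In edgeR quasi-likelihood tests with Benjamini-Hochberg adjustment, 3896 of 13053 intervals passed an adjusted p of 0.05 (29.8%). Among the 4771 named genes 1539 passed (32.3%), of which 881 rose (18.5%) and 658 fell (13.8%). The count that rose was 561 without ES library 1 and 538 without ES library 2. The 3 ES and the 3 control libraries did not overlap for 48.2% of named genes. The median log2 fold change over named genes was 0.02.

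The log2 fold change of a gene rose with the GC content of its exons (Spearman rank correlation 0.63 across 4769 genes, which are not independent replicates). Among the 954 genes with the lowest GC content (31.7% to 43.5%) the median log2 fold change was −0.68, with 41.8% of genes lower and 0.629% higher. Among the 954 with the highest GC content (54.7% to 73.1%) the median was 0.65, with 0.524% lower and 48.2% higher. The relation to exon length was weak (−0.06), as was that to GC content of the promoter (0.16 across 3567 genes, where exon GC content gave 0.65). GC content under the interval itself gave 0.51. Each library's deviation from the mean of the 6 had its own rank correlation with GC content, at 0.52, 0.55 and 0.35 in ES libraries 1 to 3 and −0.50, −0.47 and −0.56 in control libraries 1 to 3. The relation was also found between other groups. It was 0.47 for injury alone against the same controls, 0.16 for ES without injury against injury alone and −0.11 for ES with injury against injury alone. The cause of the relation was not tested.

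**Figure D1:**
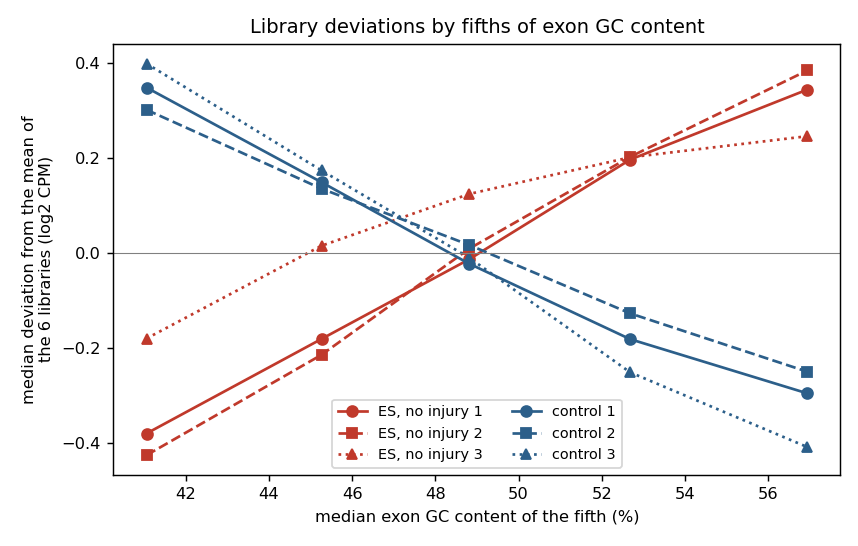
Median deviation of each library's log2 CPM from the mean of the 6 libraries (vertical axis) in 5 groups of named genes ordered by exon GC content (horizontal axis, median percent of the group), with 953 genes in the middle group and 954 in each other. The lines of the 3 ES libraries run upward and those of the 3 controls downward, and ES library 3 is the flattest of the ES lines (rank correlation 0.35).

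Most fold changes of this comparison are therefore given a second time, from a fit in which a smooth trend of each library on GC content and exon length was removed. This lowered the rank correlation with GC content to 0.12. With the trend removed 463 of 4771 named genes passed (9.7%), 249 higher (5.22%) and 214 lower (4.49%). That count was 168, 285 and 145 without control library 1, 2 or 3 and 176 and 199 without ES library 1 or 2, against 570 without ES library 3. Of the 1539 genes called on the counts as deposited, 374 (24.3%, and 7.84% of genes tested) were called in the same direction in both fits, 205 higher (4.3% of genes tested) and 169 lower (3.54%). A stricter set of 88 genes, 35 higher and 53 lower, was called in the same direction in all 13 fits of the counts as deposited (all libraries, and each of the 12 left out) and in all 7 fits with the trend removed (all libraries, and each of the 6 left out). These 88 genes are called stable in what follows. The set is a description chosen after its values were seen, and the median exon GC content was 55.0% for its higher and 45.4% for its lower members.

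**Figure D2:**
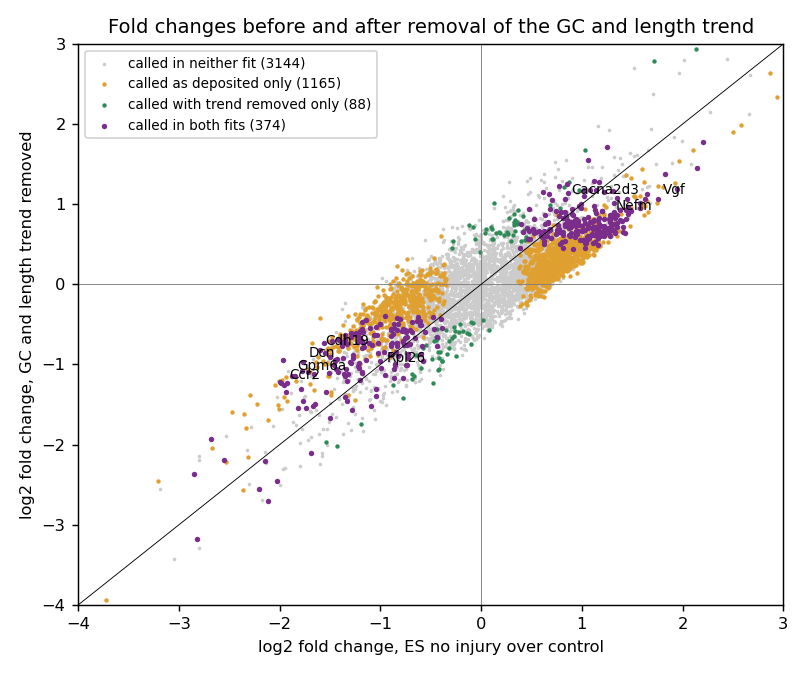
Log2 fold change of ES without injury over control for named genes, on the counts as deposited (horizontal axis) and without the trend on GC content and length (vertical axis), with the line of equality. Of these genes 374 were called in both fits in the same direction, 1165 on the counts as deposited only or in the opposite direction, and 88 with the trend removed only, and 8 genes lie outside the axes. Cacna2d3 (0.84 as deposited, 1.06 with the trend removed) lies above the line, and Vgf (1.76 and 1.06) below it.

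Counted reads were 7952798, 8588619 and 10442385 in ES libraries and 8930766, 8396501 and 8498166 in controls, so that the controls lay within the range of the ES libraries. Other technical measures separated the groups. Mitochondrial transcripts took 12.4%, 14.6% and 10.4% of reads with ES and 28.7%, 22.8% and 28.2% in controls. An interval over the noncoding locus Gm42418, which overlaps a ribosomal RNA repeat, took 0.620%, 0.411% and 0.565% with ES and 1.91%, 2.56% and 2.24% in controls. Leaving mitochondrial counts out of the library totals moved the median log2 fold change by 0.002. The part of these measures in the fold changes was not tested.

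Among neuronal genes, a neurofilament, some vesicle proteins and some secreted peptide precursors were higher with ES. Nefm, a subunit of the neurofilaments that set axon calibre, had 1808, 1647 and 1792 CPM with ES and 727, 722 and 713 CPM in controls (log2 fold change 1.28 ± 0.17, where ± is the standard error here and below, n = 3 libraries a group, adjusted p = 0.00012). With the trend removed Nefm had 0.86 (adjusted p = 0.0041). Map6, which stabilises microtubules against cold, had 98.6, 90.6 and 105 CPM with ES and 41.8, 44.5 and 45.2 CPM in controls (1.16 ± 0.13, adjusted p = 5.5e-05; 0.79, adjusted p = 0.0054 with the trend removed). Every ES library lay above every control for Nefm and Map6, where 48.2% of all named genes did not overlap in either direction. Both were stable genes.

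Several transmitter release genes were also higher. Dnm1, the dynamin that pinches synaptic vesicles from the membrane and whose measured sequence is printed above, had 211, 218 and 230.0 CPM with ES, against 78.8, 83.4 and 73.1 CPM in controls (log2 fold change 1.48 ± 0.16, adjusted p = 3.7e-05). Dnm1 was a stable gene, at 0.92 with the trend removed (adjusted p = 0.0020). The glutamate loaders of vesicles moved apart. Slc17a7, the vesicular glutamate transporter VGLUT1, had 241, 239.6 and 191 CPM with ES and 88.7, 78.0 and 80.9 CPM in controls (1.44 ± 0.18, adjusted p = 8.4e-05; 0.93, adjusted p = 0.0034 with the trend removed). Slc17a6, VGLUT2, had 28.2, 29.1 and 38.7 CPM with ES and 65.5, 62.3 and 79.3 CPM in controls (−1.11 ± 0.27, adjusted p = 0.0059). The Slc17a6 call was not made with the trend removed (−0.61 ± 0.23, adjusted p = 0.090). Exon GC content was 56.0% for Slc17a7 and 42.6% for Slc17a6. Of 9 measured genes of synaptic vesicle release, 5 were higher and 1 lower and the median was 0.55 (log2), beside 0.02 over all named genes. Over all named genes 18.5% were higher and 13.8% lower, and with the trend removed 5.22% and 4.49%. Counts of list members here and below are to be read beside these shares. With the trend removed 3 of the 9 were higher and none lower. Without ES library 2 the count of higher genes was 3, and Sv2a, a vesicle glycoprotein, was among those lost (0.56, adjusted p = 0.053).

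Some genes for secreted and surface proteins of neurons were higher. Vgf, a peptide precursor stored in dense core granules, had 194, 134 and 138 CPM with ES and 49.0, 56.2 and 32.4 CPM in controls (log2 fold change 1.76 ± 0.26, adjusted p = 0.00020; 1.06, adjusted p = 0.0061 with the trend removed). Lrrc4b, a synaptic adhesion protein, had 118, 243 and 92.4 CPM with ES and 51.0, 33.7 and 33.3 CPM in controls (1.94 ± 0.30, adjusted p = 0.00032; 1.19, adjusted p = 0.0054). ES library 2 stood far above the other ES libraries for Lrrc4b, and without it the log2 fold change was 1.37 (adjusted p = 0.0017). Sez6, a membrane protein of dendrites, had 16.4, 20.2 and 17.2 CPM with ES and 6.43, 6.14 and 4.57 CPM in controls (1.64 ± 0.25, adjusted p = 0.00026; 1.13, adjusted p = 0.0063). All 3 were stable genes. Of 7 genes for neuropeptides and secretory granules, 3 were higher (Vgf, Chga, Pcsk2), 3 did not pass and 1 was lower (Tac1, the substance P precursor, −0.48, adjusted p = 0.049). Among all named genes 18.5% were higher and 13.8% lower. The summed level of the 7 genes overlapped between the groups, at 1173 to 1433 CPM with ES and 1229 to 1293 CPM in controls. The Tac1 call failed when any of 9 of the 12 libraries was omitted (highest adjusted p = 0.15) and was not made with the trend removed (−0.17, adjusted p = 0.58). Pcsk2, a prohormone convertase, lost its call when any of 10 libraries was omitted (0.39 ± 0.14, highest adjusted p = 0.19) but had 0.75 with the trend removed (adjusted p = 0.016, and called in 2 of 6 such fits with a library left out).

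Some channels that set firing were higher, and few calls outlasted the removal of the trend. Hcn2, a pacemaker channel opened by hyperpolarisation and cyclic AMP, had 168, 204 and 140.3 CPM with ES, against 61.6, 63.0 and 68.0 CPM in controls (log2 fold change 1.41 ± 0.16, adjusted p = 5.0e-05; 0.66, adjusted p = 0.011 with the trend removed). Of 15 measured potassium and HCN channel genes 7 were higher and 1 lower, with a median of 0.49. Without the trend Hcn2 alone was called, and 0 to 3 of these genes were called higher in the fits with a library also left out (Hcn2 in 4 of 6). Kcnab2, a potassium channel beta subunit with 2131, 1995 and 1652 CPM in ES libraries and 928, 1023 and 830.3 CPM in controls, gave 1.05 ± 0.20 (adjusted p = 0.0011) but 0.48 with the trend removed (adjusted p = 0.11). The count of higher channel genes was 4 without ES library 2. Among 11 voltage-gated sodium and calcium channel genes 3 were higher and none lower (Scn8a, Cacnb3, Cacna2d3), where 18.5% of all named genes were higher. Cacna2d3 encodes an auxiliary calcium channel subunit and has a low exon GC content of 45.6%. It had 24.8, 20.0 and 20.5 CPM with ES and 12.5, 12.3 and 11.7 CPM in controls (0.84 ± 0.19, adjusted p = 0.0037), and its fold change was larger with the trend removed (1.06 ± 0.21, adjusted p = 0.0048). It is a stable gene, as is Tspan7, a tetraspanin that takes part in AMPA receptor traffic, with a GC content of 43.1%. Tspan7 had 215, 247 and 177 CPM with ES and 99.9, 110.3 and 96.7 CPM in controls (1.06 ± 0.18, adjusted p = 0.00047; 1.56, adjusted p = 0.00081 with the trend removed).

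The series title names KCNN channels, calcium-activated potassium channels that dampen firing, and of these Kcnn4 and Kcnn3 could be measured. Kcnn4 had 10.8, 9.15 and 6.05 CPM with ES and 3.88, 4.66 and 4.22 CPM in controls (log2 fold change 1.02 ± 0.32, adjusted p = 0.024). Its groups did not overlap, as for 48.2% of all named genes. The Kcnn4 call was lost without control library 1 or 3 or without ES library 1 or 2 (highest adjusted p = 0.15), and was not made with the trend removed (0.57 ± 0.31, adjusted p = 0.26). Kcnn3 overlapped between the groups, at 0.464, 1.103 and 0.796 CPM with ES and 1.66, 2.39 and 0.351 CPM in controls (−0.89 ± 0.92, adjusted p = 0.51; −0.86, adjusted p = 0.58 with the trend removed). Its low level limits what can be seen.

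Receptors on sensory neurons went both ways. Oprm1, the mu opioid receptor, had 8.93, 6.95 and 16.9 CPM with ES, against 28.6, 36.2 and 31.6 CPM in controls (log2 fold change −1.54 ± 0.36, adjusted p = 0.0040; −1.34, adjusted p = 0.0065 with the trend removed). Oprm1 was read only through 206 bases of untranslated or noncoding exon. Gria3, an AMPA type glutamate receptor subunit, had 19.6, 16.7 and 26.3 CPM with ES and 56.3, 52.7 and 49.0 CPM in controls (−1.33 ± 0.18, adjusted p = 0.00013; −0.75, adjusted p = 0.0087). Trpc6, a cation channel opened by diacylglycerol, had 31.1, 23.6 and 27.4 CPM with ES and 66.3, 82.4 and 70.6 CPM in controls (−1.42 ± 0.15, adjusted p = 3.7e-05; −1.09, adjusted p = 0.00065). All 3 were stable genes. Ngfr, the p75 neurotrophin receptor of neurons and glia, had 824, 702 and 719 CPM with ES and 307, 354 and 258 CPM in controls (1.29 ± 0.17, adjusted p = 9.8e-05; 0.67, adjusted p = 0.0096 with the trend removed). Cntfr, the binding subunit for ciliary neurotrophic factor, had 584, 678 and 416 CPM with ES and 229, 223 and 205 CPM in controls (1.35 ± 0.22, adjusted p = 0.00038; 0.72, adjusted p = 0.012). Where 18.5% of all named genes were higher and 13.8% lower, 3 of 9 neurotrophic ligands and receptors were higher and none lower. Of these 3, 2 (Ngfr, Cntfr) were also called with the trend removed. With a library also left out that count was 0 to 2, and Ngfr and Cntfr were each called in 3 of 6 fits. Of 9 nociceptor and thermoreceptor genes 3 were higher (Scn10a, Asic1, Piezo2) and 2 lower (Calcrl, Oprm1), and Oprm1 alone was called with the trend removed. Asic1 had 1.12 (adjusted p = 0.0028), Piezo2 0.75 (adjusted p = 0.013) and Calcrl −1.08 (adjusted p = 0.0027). The other 4 did not pass, among them the heat and ATP sensors. Trpv1 had 0.19 ± 0.22 (adjusted p = 0.55; −0.14, adjusted p = 0.74 with the trend removed) and P2rx3 0.06 ± 0.17 (adjusted p = 0.83; −0.12, adjusted p = 0.70), and both overlapped between the groups.

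Of the 5 sensory neuron identity genes all were higher on the counts as deposited, at a median of 0.86 (log2), and Nefm alone was called with the trend removed. Among all named genes 18.5% were higher on the counts as deposited and 5.22% with the trend removed. Thy1, a surface glycoprotein of neurons, had 2003, 1959 and 1459.6 CPM with ES and 866, 885 and 867 CPM in controls (1.05 ± 0.23, adjusted p = 0.0025), and Avil, an actin regulator of sensory neurons, had 1471, 1317 and 1409 CPM with ES and 744, 854 and 709 CPM in controls (0.86 ± 0.15, adjusted p = 0.00050). After removal of the trend neither passed, with Thy1 at 0.60 (adjusted p = 0.054) and Avil at 0.43 (adjusted p = 0.061). The count of 5 was 3 in each of the fits without control library 1, control library 3, ES library 1 or ES library 2. Immediate early genes, transcribed soon after cell activity, were higher for 4 of 10, where 18.5% of all named genes were higher. None of the 10 was called with the trend removed. Junb, a member of the AP-1 transcription factor, had 72.4, 71.1 and 67.6 CPM with ES and 44.5, 41.2 and 31.0 CPM in controls (0.85 ± 0.20, adjusted p = 0.0037; 0.22, adjusted p = 0.46 with the trend removed), while Fos did not pass (0.23 ± 0.28, adjusted p = 0.58; 0.03, adjusted p = 0.96). Without ES library 2 the count of higher genes was 1.

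**Figure D3:**
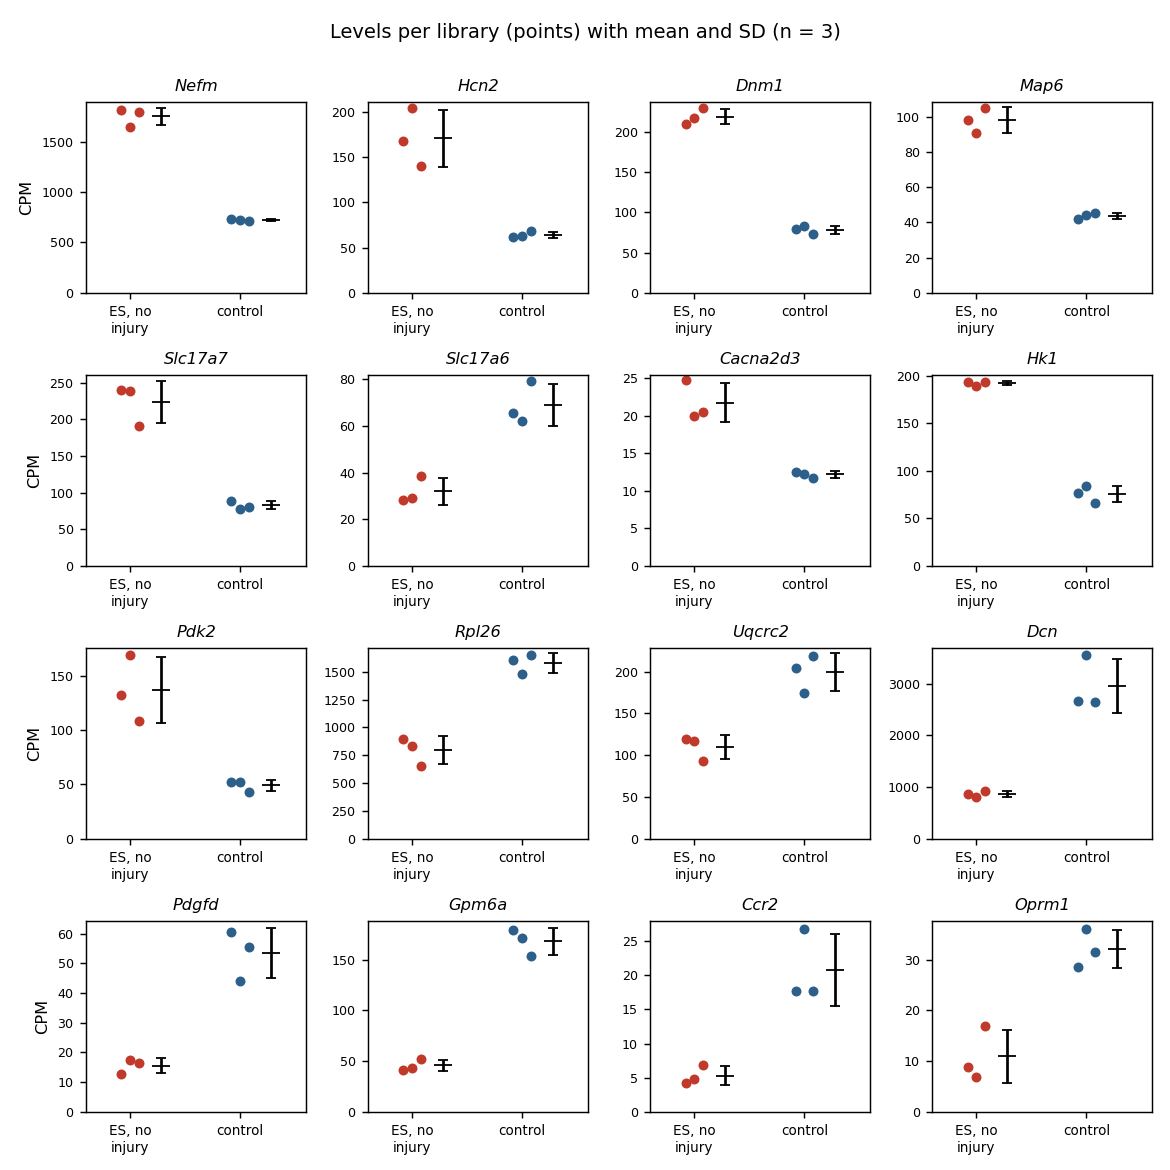
CPM of 16 genes in each ES and control library (points), with the mean and SD of n = 3 libraries beside them, each panel starting at 0. The groups do not overlap in any panel. All 16 genes were called on the counts as deposited, which favours a lack of overlap, and 48.2% of all named genes did not overlap. The panels of Slc17a7 (191 to 241 CPM with ES, 78.0 to 88.7 CPM in controls) and Slc17a6 (28.2 to 38.7 CPM with ES, 62.3 to 79.3 CPM in controls) run in opposite directions.

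Several genes of glucose use and 1 gene of fatty acid oxidation were higher in stimulated ganglia. Hk1, the hexokinase that starts glycolysis in neurons, had 193, 189 and 194 CPM with ES, against 76.7, 83.7 and 66.2 CPM in controls (log2 fold change 1.35 ± 0.14, adjusted p = 3.6e-05; 0.87, adjusted p = 0.0025 with the trend removed). Pdk2, a kinase that restrains entry of pyruvate into mitochondria, had 133, 169 and 109 CPM with ES and 51.9, 51.9 and 43.3 CPM in controls (1.48 ± 0.20, adjusted p = 0.00011; 0.93, adjusted p = 0.0015). Pgam1, a later enzyme of glycolysis, had 287, 293 and 233 CPM with ES and 140.2, 173 and 112 CPM in controls (0.93 ± 0.18, adjusted p = 0.0011; 0.76, adjusted p = 0.0068). Hk1 and Pdk2 were stable genes. Of 11 genes for glycolysis and pyruvate entry 5 were higher, 6 did not pass and none was lower, where 18.5% of all named genes were higher. Once the trend was removed 3 of the 11 were higher, and 2 to 3 in the fits with a library also left out. Acadl, which starts mitochondrial oxidation of long-chain fatty acids, is a stable gene of low GC content (44.4%). It had 139, 139 and 122 CPM with ES and 75.4, 79.9 and 78.2 CPM in controls (0.77 ± 0.14, adjusted p = 0.00070; 1.22, adjusted p = 0.00014).

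Respiratory chain genes split. Complex III has core subunits in opposite directions. Uqcrc1 had 986, 1044 and 730.0 CPM with ES and 460.5, 482 and 466 CPM in controls (log2 fold change 0.97 ± 0.22, adjusted p = 0.0029), while Uqcrc2 had 119, 117 and 92.7 CPM with ES and 204, 175 and 219 CPM in controls (−0.87 ± 0.14, adjusted p = 0.00038). Without the trend Uqcrc1 did not pass (0.54, adjusted p = 0.082) and Uqcrc2 did (−0.55, adjusted p = 0.019). In all 6 of 15 nuclear genes of oxidative phosphorylation were higher and 4 lower (Ndufa4, Ndufa5, Uqcrc2, Ndufb4), with a median of 0.13. Among all named genes 18.5% were higher and 13.8% lower. After removal of the trend none of the 15 was higher and 3 were lower. With a library also left out 0 to 2 were higher and 0 to 3 lower, and Uqcrc2 was called in 3 of 6 such fits. The count of higher genes was 3 without control library 1 or without ES library 1 or 2.

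The intervals of all 13 protein genes of the mitochondrial genome were lower with ES and passed the test. Most of them overlap a neighbouring gene, and only mt-Co2, mt-Nd3 and mt-Cytb take a name by position. The interval of mt-Cytb, a complex III subunit, had 21505, 25599.9 and 16076 CPM with ES and 50941, 39531 and 51633 CPM in controls (log2 fold change −1.17 ± 0.22, adjusted p = 0.00093). The interval of mt-Co2, a subunit of cytochrome oxidase, had 239.9, 297 and 251 CPM with ES and 1277, 572 and 1229 CPM in controls (−1.97 ± 0.30, adjusted p = 0.00029). The interval of mt-Atp8, a small subunit of ATP synthase, had 66.8, 201 and 42.7 CPM with ES and 1340.0, 1027 and 1009 CPM in controls, the largest fold change of the 13 (−3.44 ± 0.80, adjusted p = 0.011; −2.34, adjusted p = 0.087 with the trend removed). Mitochondrial transcripts are poor in G and C, and with the trend removed mt-Co2 (−0.94, adjusted p = 0.034) and the interval of mt-Nd4l (−2.38, adjusted p = 0.039) alone stayed called, and mt-Cytb did not pass (−0.24, adjusted p = 0.44). Nuclear copies of mitochondrial sequence could share reads with these intervals, so the values are uncertain.

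Some translation genes were lower, also after removal of the trend. Rpl26, a protein of the large ribosomal subunit, had 894, 835 and 654 CPM with ES and 1606, 1481 and 1646 CPM in controls (log2 fold change −0.99 ± 0.18, adjusted p = 0.00083; −1.04, adjusted p = 0.00087 with the trend removed). Rps27a, a fusion of ubiquitin and a small subunit protein, had 323, 290.0 and 395 CPM with ES and 907, 803 and 874 CPM in controls (−1.36 ± 0.23, adjusted p = 0.00049; −1.12, adjusted p = 0.0056). Naca, which binds nascent chains at the ribosome, had 58.2, 59.7 and 52.5 CPM with ES and 88.4, 81.0 and 88.3 CPM in controls (−0.60 ± 0.13, adjusted p = 0.0026; −0.87, adjusted p = 0.0027). All 3 were stable genes, but only 6 ribosomal protein genes were measured, 2 of them lower and none higher, and processed pseudogenes may share their reads. Among all named genes 18.5% were higher and 13.8% lower. Of 15 splicing genes 2 were higher (1 without control library 1 or 3 or ES library 2 or 3) and 6 lower, and Srsf3, a serine and arginine rich splicing factor, alone was called with the trend removed. Srsf3 had 119.7, 120.3 and 119.8 CPM with ES and 266, 258 and 303 CPM in controls (−1.20 ± 0.12, adjusted p = 3.6e-05; −0.58, adjusted p = 0.021, and called in 2 of 6 such fits with a library left out). Meg3, a long noncoding RNA kept in the nucleus, had 567, 565 and 716 CPM with ES and 1003, 874 and 1201 CPM in controls (−0.74 ± 0.26, adjusted p = 0.043). The Meg3 call failed when any of 8 of the 12 libraries was omitted (highest adjusted p = 0.18), whereas with the trend removed it was −1.004 (adjusted p = 0.0052) and held whichever of the 6 libraries was omitted.

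Single matrix, fibroblast and caveolar genes were among the lower ones. Dcn, the collagen-binding proteoglycan decorin of fibroblasts, had 873, 802 and 927 CPM with ES, against 2659, 3557 and 2641 CPM in controls (log2 fold change −1.77 ± 0.17, adjusted p = 2.2e-05; −0.97, adjusted p = 0.0032 with the trend removed). Pdgfd, a growth factor for mural cells and fibroblasts, had 12.6, 17.4 and 16.4 CPM with ES and 60.6, 44.1 and 55.5 CPM in controls (−1.78 ± 0.21, adjusted p = 6.2e-05; −1.08, adjusted p = 0.0028). Fbn2, a fibrillin of elastic microfibrils with an exon GC content of 51.0%, was low throughout, at 1.04, 0.441 and 1.99 CPM with ES and 5.21, 6.71 and 4.80 CPM in controls (−2.21 ± 0.58, adjusted p = 0.0088; −2.55, adjusted p = 0.0063). All 3 were stable genes. Itgav, the integrin alpha V chain, had 66.6, 64.8 and 87.2 CPM with ES and 182, 178 and 171 CPM in controls (−1.28 ± 0.22, adjusted p = 0.00060; −0.91, adjusted p = 0.0013). Cav1 and Cav2, neighbouring genes for the coat proteins of caveolae, stood at 243, 237 and 327 CPM and at 247, 205 and 287 CPM with ES. In controls Cav1 had 658, 709.5 and 609.9 CPM and Cav2 had 666, 680.2 and 620.0 CPM. Their log2 fold changes were −1.29 ± 0.16 (adjusted p = 8.1e-05) for Cav1 and −1.41 ± 0.15 (adjusted p = 3.6e-05) for Cav2. Without the trend they were −0.98 (adjusted p = 0.0011) for Cav1 and −0.69 (adjusted p = 0.0069) for Cav2. Both were stable genes, as was Itgav.

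The matrix list held calls in both directions. Of 19 extracellular matrix genes 3 were lower (Dcn, Postn, Col5a2), 1 was higher and 15 did not pass, with a median log2 fold change of 0.13, where 13.8% of all named genes were lower. Without the trend 5 were lower and 1 higher, and with a library also left out 1 to 3 were lower and none higher. The higher gene was Timp2, an inhibitor of matrix proteases, with 1621, 1529.8 and 1497 CPM in ES libraries and 737, 913 and 704 CPM in controls (0.98 ± 0.19, adjusted p = 0.0010; 0.55, adjusted p = 0.042). Timp2 was called in none of the fits with the trend removed and a library left out. Of 8 fibroblast and meningeal markers 3 were lower and none higher, and 4 were lower with the trend removed, but 1 to 3 with a library also left out. Their summed level was 4696 to 9164 CPM with ES and 9167 to 10032 CPM in controls, and ES library 2 held the highest of the ES values through Ptgds, a meningeal prostaglandin synthase (2563, 7112 and 2685 CPM with ES, 5103, 5053 and 5523 CPM in controls).

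Immune genes also went both ways. Ccr2, the chemokine receptor that recruits monocytes, had 4.18, 4.85 and 6.85 CPM with ES and 17.7, 26.8 and 17.7 CPM in controls (log2 fold change −1.96 ± 0.29, adjusted p = 0.00020; −1.25, adjusted p = 0.0047 with the trend removed). Lyz2, the lysozyme of macrophages, had 29.1, 26.5 and 24.6 CPM with ES and 49.9, 56.3 and 41.3 CPM in controls (−0.88 ± 0.16, adjusted p = 0.00067; −0.73, adjusted p = 0.0080). Both were stable genes. Cd36, a scavenger receptor of macrophages and endothelium, had 4.64, 2.65 and 4.22 CPM with ES and 11.3, 12.1 and 22.4 CPM in controls (−1.98 ± 0.30, adjusted p = 0.00027; −1.23, adjusted p = 0.011). Where 13.8% of all named genes were lower and 18.5% higher, 4 of 7 macrophage markers were lower (Mrc1, Ctss, Lyz2, F13a1) and none higher. Their median log2 fold change was −0.88. With the trend removed 3 were lower, Lyz2 and F13a1 among the 4 and Aif1 in addition, and with a library also left out 1 to 2. Their summed level was 74.9 to 98.5 CPM with ES and 121 to 140 CPM in controls. C1qc, a complement subunit of macrophages, did not pass (0.11 ± 0.18, adjusted p = 0.69). Of 10 antigen presentation genes 4 were higher, 5 did not pass and 1 (Ctss) was lower, with a median of 0.40 that was 0.04 with the trend removed. The Ctss call was lost without control library 1 or 2 or ES library 3. Without the trend 2 were higher and none lower, and with a library also left out 0 to 2 were higher. Tap2, a peptide transporter for class I molecules, had 49.4, 42.6 and 39.0 CPM with ES and 20.5, 17.1 and 12.8 CPM in controls (1.38 ± 0.23, adjusted p = 0.00049; 0.80, adjusted p = 0.020), and H2-Eb1, a class II chain, had 63.0, 56.1 and 54.3 CPM with ES and 26.8, 35.9 and 28.8 CPM in controls (0.92 ± 0.18, adjusted p = 0.0012; 0.76, adjusted p = 0.0084). H2 genes resemble each other, and reads may be split among them. Tnfrsf1a, the main receptor for tumour necrosis factor, was a stable higher gene (66.0, 63.6 and 52.4 CPM with ES, 29.6, 21.6 and 24.1 CPM in controls, 1.27 ± 0.19, adjusted p = 0.00024; 0.81, adjusted p = 0.0057 with the trend removed).

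Glial genes went both ways. Cdh19, a cadherin of satellite glia and Schwann precursors whose sequence is printed above, had 17.3, 12.7 and 24.1 CPM with ES and 53.7, 57.0 and 54.3 CPM in controls (log2 fold change −1.60 ± 0.24, adjusted p = 0.00024; −0.82, adjusted p = 0.026 with the trend removed, and called in 1 of 6 such fits with a library left out). Of 6 satellite glial markers 3 were lower (Cdh19, Ptprz1, Slc1a3) and 1 higher (Kcnj10), and Cdh19 alone was called with the trend removed. Among all named genes 13.8% were lower and 18.5% higher. The Kcnj10 call was lost without control library 2 or 3, ES library 2 or library 2 of ES with injury, with the 6 libraries compared fitted alone, and with voom sample weights. The count of lower markers was 1 without control library 1. Gpm6a and Gpm6b, membrane glycoproteins of neurons and glia, were stable lower genes. Gpm6a had 41.5, 43.2 and 52.2 CPM with ES and 179, 172 and 153 CPM in controls (−1.88 ± 0.19, adjusted p = 3.6e-05; −1.14, adjusted p = 0.0012), and Gpm6b had 117, 118 and 150.0 CPM with ES and 299.6, 316 and 285 CPM in controls (−1.23 ± 0.17, adjusted p = 0.00015; −0.63, adjusted p = 0.0079). Myelinating Schwann cell markers were higher for 4 of 6 and lower for none, none of them with the trend removed. Prx, the periaxin of peripheral myelin, had 3328, 2948 and 3427 CPM with ES and 1693, 2322 and 1659 CPM in controls (0.77 ± 0.28, adjusted p = 0.044; 0.20, adjusted p = 0.67 with the trend removed), a call that failed when any of 6 of the 12 libraries was omitted. The count of higher myelin markers was 2 without control library 1 and 1 without control library 3, ES library 1 or ES library 2.

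Astrocytes are glia of the central nervous system. Where 18.5% of all named genes were higher, astrocyte markers were higher for 4 of 6, none of them with the trend removed. Their summed level was 143, 221 and 150.1 CPM in ES libraries 1 to 3 and 123, 111 and 109 CPM in controls. ES library 2 held the highest value, and without it 1 of the 4 stayed called (Agt, the angiotensin precursor, at 0.73, adjusted p = 0.045). The count was also 1 without control library 2 or 3, and 2 without ES library 1. Skeletal muscle markers varied by library, at 44.4, 9.48 and 57.0 CPM summed in ES libraries and 68.7, 7.28 and 654 CPM in controls. The low-level muscle genes Sln and Ttn were called lower (−5.05 and −4.38, adjusted p = 0.0079 and 0.015; −4.77 and −3.89, adjusted p = 0.037 and 0.042 with the trend removed), but Sln had 11.9, 0.455 and 4.92 CPM in the controls and Ttn 0.887, 0.114 and 10.4 CPM, while both stayed under 0.5 CPM in every ES library. Ttn was not called without control library 3, ES library 2 or ES library 3. Oligodendrocyte markers (525 to 714 CPM with ES, 456 to 638 CPM in controls) had none called of 6 (Gpr37 was higher with the trend removed), and red cell markers none of 2. Of 10 endothelial and mural markers 2 were higher, Eng (1.58 ± 0.26, adjusted p = 0.00045; 1.01, adjusted p = 0.020, and called in 3 of 6 such fits with a library left out) and Tie1 (1.17 ± 0.21, adjusted p = 0.00080; 0.62, adjusted p = 0.055), while Angpt2, a vessel ligand outside that list, was a stable lower gene (−1.18 ± 0.19, adjusted p = 0.00035; −1.11, adjusted p = 0.0013). The part of other cell types in the fold changes was not tested.

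**Figure D4:**
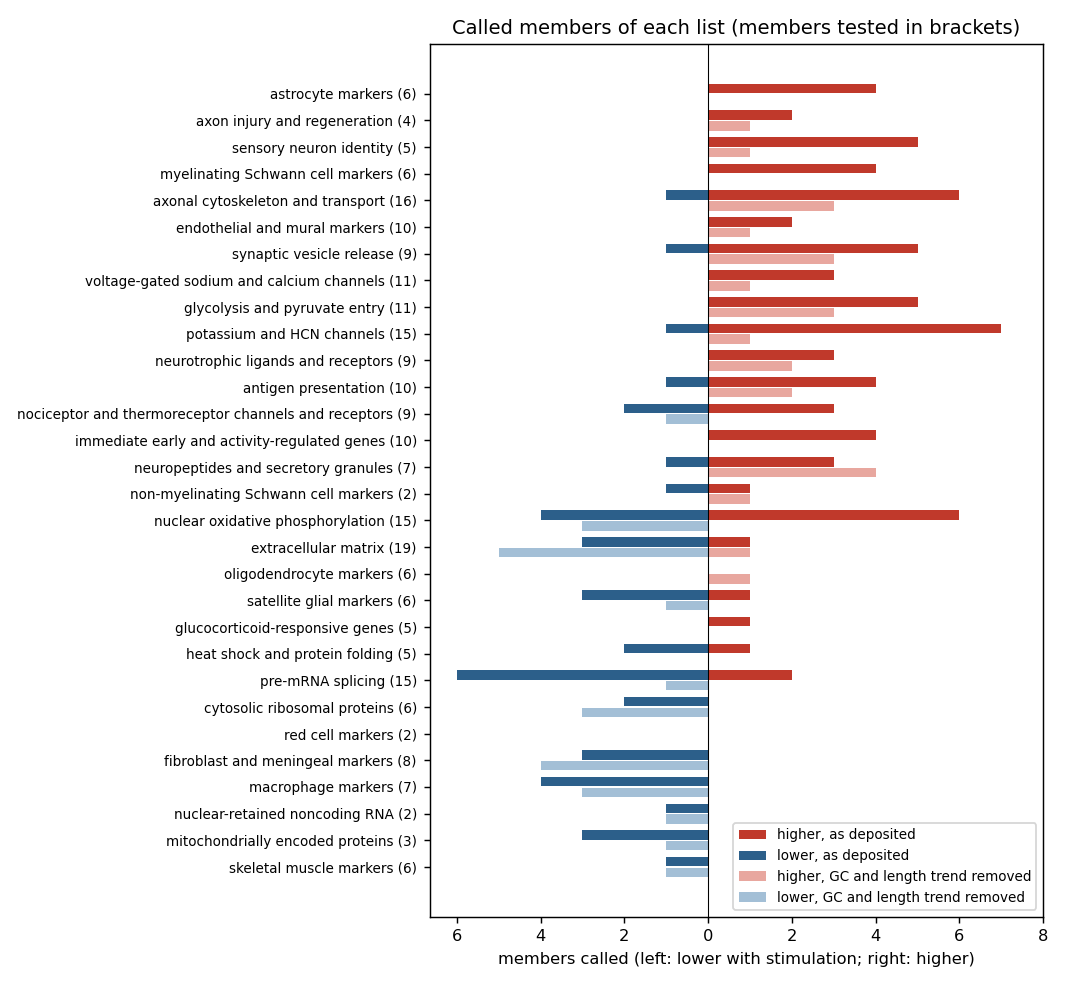
Number of list members called lower (left of 0) and higher (right of 0) with ES, on the counts as deposited (dark bars) and without the trend on GC content and length (pale bars), for lists with at least 2 members tested. The list of potassium and HCN channels has 7 higher members as deposited and 1 with the trend removed, and the fibroblast and meningeal list 3 and 4 lower members. Over all named genes 18.5% were higher and 13.8% lower as deposited, and 5.22% and 4.49% with the trend removed.

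Other stable genes stood outside these lists. Cd24a, a small surface glycoprotein, had 1288, 1117 and 1187 CPM with ES and 2699, 2995 and 2560.2 CPM in controls, and its log2 fold change of −1.20 (standard error 0.16, adjusted p = 9.8e-05) was −1.20 with the trend removed as well (adjusted p = 0.00026). Nr3c1, the glucocorticoid receptor, had 3.94, 3.42 and 6.93 CPM with ES and 18.1, 14.6 and 12.9 CPM in controls (−1.65 ± 0.35, adjusted p = 0.0022; −1.49, adjusted p = 0.0042). Of 5 genes that respond to glucocorticoids 1 was higher (Cdkn1a, 0.70, adjusted p = 0.049) and none lower. The Cdkn1a call failed when any of 8 of the 12 libraries was omitted (highest adjusted p = 0.19), with RLE scaling, with a minimum mean count, with the replicate block and with the trend removed (0.39, adjusted p = 0.31). Pltp, which transfers phospholipids between lipoproteins, had 108, 141 and 79.8 CPM with ES and 35.4, 40.2 and 30.5 CPM in controls (1.63 ± 0.25, adjusted p = 0.00027; 1.06, adjusted p = 0.0027). Abca1, which exports cholesterol, had 153, 169 and 219.9 CPM with ES and 302, 309.9 and 294 CPM in controls (−0.74 ± 0.15, adjusted p = 0.0016; −0.76, adjusted p = 0.0012). Where 13.8% of all named genes were lower and 18.5% higher, zinc finger genes of the Zfp series were lower for 46 of 133 and higher for 11. The set was chosen after its values were seen and had a median of −0.55. After removal of the trend 12 were lower and 5 higher (median −0.15), and the median exon GC content of the set was 43.8%. Zfp60 (−1.79 ± 0.26, adjusted p = 0.00021), Zfp970 (−1.85 ± 0.20, adjusted p = 3.7e-05) and Zfp729a (−1.94 ± 0.31, adjusted p = 0.00037) were stable lower genes. Without the trend they had −1.31 (Zfp60, adjusted p = 0.00070), −1.14 (Zfp970, adjusted p = 0.0012) and −1.34 (Zfp729a, adjusted p = 0.0053). Zfp genes are close relatives and may share reads.

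The effect of ES was also measured after injury, in libraries other than the 6 compared so far. Of the 374 genes called in both fits, 198 (52.9%) had the same sign in ES with injury against injury alone, where 47.4% of all named genes did. Their median log2 fold change after injury was 0.001 for the higher genes and −0.05 for the lower ones. Libraries of ES with injury differed among themselves, with 2.93% of reads over Gm42418 in library 2 and 0.746% and 0.825% in libraries 1 and 3. The mean squared difference relative to sampling noise was 72.3 and 48.2 between library 2 and libraries 1 and 3. Between libraries 1 and 3 it was 13.4. For ES without injury it was 11.2 (libraries 1 and 2), 19.3 (1 and 3) and 33.0 (2 and 3). For controls it was 13.5, 8.52 and 18.2 in that order. Fold changes after injury were not refitted without library 2 of ES with injury, and its part in them was not tested. The test of the difference itself, the fold change in uninjured mice minus that in injured mice, passed for 971 of 4771 named genes (20.4%). Among all 13053 intervals it passed for 2507 (19.2%), 64.3% of them higher, a share that was 52.1% with RLE scaling and 52.5% with the trend removed. It passed for 264 of the 374, and for 75 of these also with the trend removed. The 374 were chosen for their change in uninjured mice, which is a term of this difference, so that the choice itself favours a pass. Across named genes the difference also followed exon GC content, with a rank correlation of 0.59, and 0.09 with the trend removed. The difference was also tested with each library left out, and the last section gives the range of calls. Trpc6 had 0.19 ± 0.15 after injury beside −1.42 without it, and the difference passed in both fits (adjusted p = 0.00085, and 0.0067 with the trend removed). Hcn2 had −0.63 ± 0.16 after injury beside 1.41 (adjusted p of the difference 0.00083 and 0.0074), and Pltp −1.17 ± 0.24 beside 1.63 (0.00085 and 0.0015).

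Some genes were called in injured as well as in uninjured mice. Of 100 named genes called in ES with injury against injury alone, 40 were also called in uninjured mice, 21 of them with the same sign. Over all named genes 32.3% were called in uninjured mice, and 47.4% had the same sign in both comparisons. The examples with the same sign that follow were chosen after their values were seen. Dcn had −0.81 ± 0.16 after injury (adjusted p = 0.016) beside −1.77 without it, and Lyz2 −0.70 ± 0.16 (adjusted p = 0.026) beside −0.88. Colec12, a scavenger receptor of vessels and stroma and a stable gene, had −1.11 ± 0.16 after injury (adjusted p = 0.0028) beside −1.37, and Cd36 −1.51 ± 0.30 (adjusted p = 0.015) beside −1.98. The difference did not pass for Lyz2 (adjusted p = 0.62), Colec12 (0.46) or Cd36 (0.47). For Dcn it passed on the counts as deposited (0.011) and not with the trend removed (0.73). Cacna2d3 had 0.64 ± 0.19 after injury (adjusted p = 0.13) beside 0.84, and its difference did not pass (0.67).

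**Figure D5:**
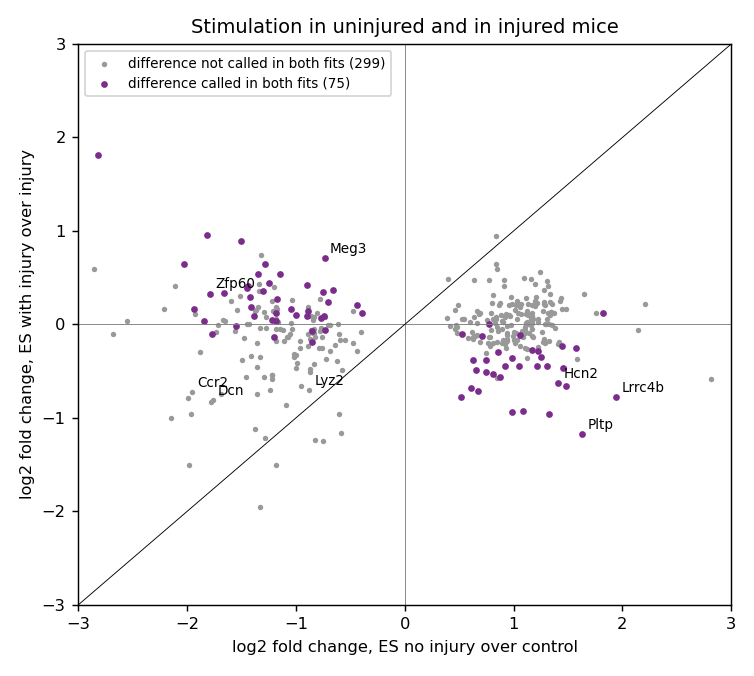
Log2 fold change of ES without injury over control (horizontal axis) and of ES with injury over injury alone (vertical axis) for the 374 genes called in both fits, with the line of equality. The 75 genes whose difference passed in both fits are purple and the other 299 grey, and 5 genes lie outside the axes. Pltp lies at 1.63 without injury and −1.17 after it, below the horizontal zero line.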

How the data were processed

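Poly(A) RNA from trigeminal ganglia was sequenced as read pairs, per the labels' protocols. The deposited files hold raw read counts per interval, which the authors made with featureCounts 2.0.6 on Ensembl 110 gene models, per the file headers. The submitters' processing notes also name FastQC, Salmon 1.10.2 and DESeq2, and the aligner is not given in the sources used here. The headers show unstranded counting, with reads allowed in several overlapping genes. Libraries compared held 7952798 to 10442385 counted reads, so genes of a few CPM rest on few reads and are least precise. The counts fit reads placed on GRCm38 and counted in GRCm39 intervals, so intervals were named by GRCm38 position from GENCODE M21.

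Counts of all 12 libraries were fitted together with edgeR 4.0.16 (R 4.3.3; TMM scaling, filterByExpr with a minimum count of 10, robust quasi-likelihood tests, Benjamini-Hochberg adjustment over 13053 intervals, threshold 0.05). The GC and length trend was removed through offsets from natural splines with 5 degrees of freedom per library. The fit of the counts as deposited was tested on simulated data that held no GC trend, and the fit with the trend removed was not tested in this way. DESeq2 1.42.0, limma 3.58.1 (voom), RLE scaling, other filters and each library left out were alternatives. Same-numbered libraries did not deviate together (correlations −0.02, 0.03 and 0.01), so numbers were not used as pairs.

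Genes in the text are KCNN genes, Nefm, Vgf, Ngfr and Dcn, the 12 highest and 12 lowest called in both fits (mean of at least 5 CPM in the higher group, no overlap, predicted genes and pseudogenes left out), and per list up to 4 members of smallest p plus a called member against the majority. Stable genes and other named members were added after their values were seen. Members and lists were chosen with earlier results of these data known. Figures were drawn with matplotlib 3.10.9. Some genes that the rule takes are not reported here.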

Additional observations from a re-analysis of the deposited data

Results flagged for a closer look

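The effect of ES differed between uninjured and injured mice, in a test of the difference itself (edgeR quasi-likelihood, Benjamini-Hochberg adjusted p under 0.05 in both fits), for 24 of the 133 genes chosen by rule, of which 23 are given here. On the counts as deposited alone 70 of the 133 passed, where 20.4% of all named genes did. With the trend removed 222 of 13053 intervals passed as higher and 201 as lower. Genes taken by the rule for their change in uninjured mice are favoured in this test, since that change is a term of the difference. Each value is the log2 fold change of ES against control in uninjured mice minus that of ES with injury against injury alone, on the counts as deposited. With the trend removed the difference was smaller in size for each gene given except Gpr37 (2.86) and Meg3 (−1.62). Hcn2 then had 1.18 (adjusted p = 0.0074). Several passed narrowly, such as Arc (1.49, adjusted p = 0.047), Cldn11 (2.19, adjusted p = 0.045), Pnmal2 (1.07, adjusted p = 0.045) and Zfp729a (−1.45, adjusted p = 0.044).

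Neuronal and excitability genes were among them. For Lrrc4b the difference was 2.72, from 1.94 in uninjured and −0.78 in injured mice. For Hcn2 the difference was 2.04, from 1.41 in uninjured and −0.63 in injured mice. For Sv2a the difference was 1.69, from 0.89 in uninjured and −0.80 in injured mice. For Pnmal2 the difference was 1.82, from 1.57 in uninjured and −0.25 in injured mice. For Slc17a6 the difference was −1.86, from −1.11 in uninjured and 0.76 in injured mice. For Arc the difference was 2.28, from 1.26 in uninjured and −1.02 in injured mice.

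Glial and myelin genes were among them. For Agt the difference was 2.85, from 1.13 in uninjured and −1.73 in injured mice. For Slc6a11 the difference was 3.59, from 1.96 in uninjured and −1.63 in injured mice. For Dao the difference was 3.46, from 1.62 in uninjured and −1.84 in injured mice. For Kcnj10 the difference was 2.22, from 1.03 in uninjured and −1.20 in injured mice. For Cldn11 the difference was 2.46, from 0.33 in uninjured and −2.14 in injured mice. For Gpr37 the difference was 2.66, from 0.79 in uninjured and −1.87 in injured mice. For Mag the difference was 2.67, from 0.87 in uninjured and −1.80 in injured mice. For Fa2h the difference was 1.85, from 0.80 in uninjured and −1.05 in injured mice. For Cnp the difference was 1.71, from 0.62 in uninjured and −1.09 in injured mice. ES library 2 held the highest level of the 3 ES libraries for Kcnj10 (106, 229.8 and 85.8 CPM with ES, 92.0, 63.2 and 51.3 CPM in controls), and without it Kcnj10 had 0.43 in uninjured mice (adjusted p = 0.22), Dao 0.74 (adjusted p = 0.30) and Slc6a11 1.17 (adjusted p = 0.18). Without that library the call in uninjured mice was also lost for Arc (0.75, adjusted p = 0.097), Sv2a (0.56, adjusted p = 0.053), Mag (0.69, adjusted p = 0.11), Cnp (0.51, adjusted p = 0.13) and Meg3 (−0.74, adjusted p = 0.098). Summed oligodendrocyte markers had 985 to 1514 CPM with injury alone and 404 to 645 CPM with ES and injury. They had 525 to 714 CPM with ES and no injury and 456 to 638 CPM in controls. In that order, astrocyte markers had 208 to 288, 88.5 to 139, 143 to 221 and 109 to 123 CPM. Myelinating Schwann cell markers had 6710 to 8513, 3414 to 6524, 5005 to 5366 and 3185 to 4156 CPM. The part of these levels in the differences was not tested. Differences were refitted with each library left out, and the last section gives the range of their number, not each gene.

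The remaining genes were among them. For H2-Eb1 the difference was 1.37, from 0.92 in uninjured and −0.45 in injured mice. For Meg3 the difference was −1.44, from −0.74 in uninjured and 0.71 in injured mice. For Pdk2 the difference was 2.13, from 1.48 in uninjured and −0.65 in injured mice. For Pigt the difference was 1.93, from 1.46 in uninjured and −0.47 in injured mice. For Pltp the difference was 2.80, from 1.63 in uninjured and −1.17 in injured mice. For Zfp60 the difference was −2.12, from −1.79 in uninjured and 0.33 in injured mice. For Zfp729a the difference was −2.10, from −1.94 in uninjured and 0.16 in injured mice. For Zfp970 the difference was −1.88, from −1.85 in uninjured and 0.04 in injured mice.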

How the results depend on the processing

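Counts are given as all, then higher and lower. Intervals called numbered 1308 (709, 599) with the GC and length trend removed, 1253 (714, 539) with the GC trend alone removed and 908 (479, 429) with the replicate block and that trend removed; named genes 463 (249, 214), 449 (257, 192) and 315 (161, 154); differences between uninjured and injured mice 423 (222, 201), 355 (202, 153) and 235 (134, 101). The replicate block alone gave 1404 named genes. With voom, lower intervals numbered 2523, lower named genes 1033 and differences 4411 (2643, 1768). Where at least 50% of the interval lay over exons, 483 genes (229, 254) were called, with fewer genes tested. The rank correlation with GC content was 0.37 with no low-count filter, 0.75 at a mean count of at least 50, 0.51 with GC content under the interval, and 0.12, 0.11 and 0.12 in the 3 fits with a trend removed.

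With a library left out, intervals called ranged over 2640 to 4593 (higher 1454 to 2643, lower 1017 to 2056), named genes over 1046 to 1802 (538 to 972, 447 to 862), differences over 1126 to 3407 (493 to 2127, 433 to 1318) and the rank correlation over 0.59 to 0.62. With the trend also removed these were 407 to 1567 (193 to 944, 214 to 623), 145 to 570 (61 to 338, 84 to 232), 124 to 688 (71 to 343, 53 to 345) and 0.11 to 0.12. Chl1 had 0.062 and Ptprz1 0.065 with the GC trend removed, and with a library left out Chl1 ranged over −0.74 to −0.55, Prpf4b over −0.81 to −0.61 and Ptprz1 over −0.68 to −0.48. With the trend also removed their highest values were 0.041, 0.093 and 0.082. Of 3831 alternative fold changes of the 133 genes, 3046 kept direction and call, 733 lost the call, 44 gained it and 8 changed sign. The causes were not tested.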
